A study of Mus musculus with 12 samples.

Results

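Lungs of mice given bovine lactoferrin (bLF) without any bacterial challenge were set against lungs of untreated mice, which asks what the protein alone does to gene expression in this tissue. The comparison takes the 3 bLF and the 3 control libraries, 6 of the 12 in the study, by their sample titles. Of the 17920 genes in the files, 13735 were tested, those with at least 0.5 FPKM (sequenced fragments relative to transcript length and to the size of the library) in at least 3 of the 12 libraries, and 4185 were not. The study used 24 male BALB/c mice aged 6 to 8 weeks, put at random into 4 groups of 6, and sequenced polyadenylated lung RNA of 3 mice per group after 14 days. The bLF mice received bovine lactoferrin at 200 mg/kg per day and no lipopolysaccharide (LPS, the endotoxin of Gram-negative bacteria), and the control mice received neither agent. The remaining groups, used here for the spread and for comparison, received LPS as 50 µL at 1 µg/µL together with the same bLF dose (LPS+bLF), or LPS alone. The route of either agent, the vehicle given to the controls, if any, and the hour of collection are not given in the labels. Each library is 1 mouse by the study's description, and p-values measure the spread between these mice.

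Lactoferrin is an iron-binding glycoprotein of milk, airway secretions and neutrophil granules that withholds iron from bacteria and binds endotoxin. Cells meet it through surface proteins such as the endocytic receptor LRP1, the asialoglycoprotein receptor and proteoglycans. Lung tissue is a mixture of alveolar and airway epithelium, endothelium, stroma and resident leukocytes, so that in bulk RNA fewer cells of a type and less RNA per cell cannot be told apart. The lists of genes below name cell types, pathways and stress responses that a lung can show.

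The 6 libraries held 16831991 to 17796314 counts, and a gene with no count could still be present at 0.169 to 0.178 CPM, the level of 3 counts, which covers counting error only. All 6 carried the defining lung markers. Sftpc, surfactant protein C of alveolar type 2 cells, was at 69973.79, 116614.6 and 109504.24 FPKM in bLF libraries, against 67657.8, 91687.49 and 125928.61 FPKM in control libraries. Ager of type 1 cells was at 3701.01 FPKM or more, and the endothelial claudin Cldn5 at 488.79 FPKM or more. The club cell gene Scgb1a1 accounted for 23.8% of all counts in control replicate 2, where it made up 2.59 to 7.43% in the other 5. Because FPKM is a share of the library, the deposited values of control replicate 2 run lower for other genes. Whether the groups overlapped was therefore read on FPKM divided by the TMM scaling factor (0.9233 for control replicate 2 and 0.981 to 1.09 for the other 5), and the values printed are as deposited. Correlations of log2 expression between libraries were 0.94 to 0.979 within bLF, 0.912 to 0.966 within control and 0.921 to 0.978 between the groups.

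No single gene passed the test across all genes. By edgeR's quasi-likelihood test with Benjamini-Hochberg adjustment, 0 of 13735 genes (0%) were called at an adjusted p under 0.05, and the smallest adjusted p was 1. At an unadjusted p under 0.05 stood 189 genes (1.38%), of which 98 were higher (0.714%) and 91 lower (0.663%) in bLF lungs. The median log2 fold change over all genes was −0.03, the median size was 0.16 and the median SE 0.28, so that a typical difference was smaller than its error. All 3 bLF libraries lay above all 3 control libraries in 610 genes (4.44%) and below them in 618 (4.5%) on scaled FPKM, against 303 (2.21%) and 789 (5.74%) on deposited FPKM. limma on log2(FPKM + 1) also called 0 genes, with 143 at an unadjusted p under 0.05. DESeq2 called 1 gene, Nr4a1, described below. The values that follow are thus descriptions of the genes with the smallest p and of the lists, with unadjusted edgeR p-values as ranks and not as calls.

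Heat shock and chaperone genes, many of them of the HSP90 and HSP70 system, ran higher in bLF lungs as a group. The cytosolic proteins of that system fold other proteins and pass clients such as steroid receptors from HSP70 to HSP90. Many are induced together by heat shock factor 1 when proteins misfold. The list is wider than that system and also holds genes of other compartments, such as Creld2 of the endoplasmic reticulum. Of 34 tested genes of this whole list, called chaperone genes below, 28 were higher in bLF lungs and 6 lower, where 45.4% of all genes were higher. Their median log2 fold change was 0.34, against −0.03 over all genes, and 8 were at an unadjusted p under 0.05, all higher, where the share over all genes is 0.714%. In 15 of the 34, all 3 bLF libraries lay above all 3 control libraries, where 4.44% of all genes did. Their list means, in log2 CPM relative to the control mean, were 0.52, 0.40 and 0.51 in bLF libraries, against −0.03, 0.11 and −0.08 in control libraries. The list was chosen with earlier results of these data known, and no test was run on it.

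Heat shock factors bind inverted repeats of GAA, and the promoters of 3 leading chaperone genes are shown because they carry the 8-base unit GAANNTTC, which is in capitals. The windows are RefSeq sequences of GRCm38.p6, 5′ to 3′ on the gene's strand, from 250 bases before to 50 after the annotated start. Chordc1 lies at chr9:18292017-18292316 (plus strand), Bag3 at chr7:128523333-128523632 (plus strand) and Dnaja1 at chr4:40722218-40722517 (plus strand).
Chordc1: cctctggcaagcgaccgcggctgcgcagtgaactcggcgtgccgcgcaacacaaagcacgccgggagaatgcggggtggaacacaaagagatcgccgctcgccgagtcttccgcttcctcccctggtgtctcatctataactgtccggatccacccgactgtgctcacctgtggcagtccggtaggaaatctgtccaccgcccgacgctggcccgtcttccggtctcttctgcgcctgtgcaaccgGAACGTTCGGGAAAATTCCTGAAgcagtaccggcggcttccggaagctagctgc
Bag3: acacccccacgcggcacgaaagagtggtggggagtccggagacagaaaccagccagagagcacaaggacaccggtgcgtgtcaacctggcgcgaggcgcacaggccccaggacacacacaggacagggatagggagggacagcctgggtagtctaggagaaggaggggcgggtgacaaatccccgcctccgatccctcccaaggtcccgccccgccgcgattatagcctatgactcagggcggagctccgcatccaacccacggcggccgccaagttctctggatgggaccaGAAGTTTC
Dnaja1: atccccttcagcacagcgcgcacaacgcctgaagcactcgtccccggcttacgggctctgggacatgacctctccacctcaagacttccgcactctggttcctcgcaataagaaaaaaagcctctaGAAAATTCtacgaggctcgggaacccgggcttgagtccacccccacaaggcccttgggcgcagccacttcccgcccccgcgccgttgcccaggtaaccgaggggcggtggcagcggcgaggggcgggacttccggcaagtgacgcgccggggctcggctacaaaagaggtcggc
In Chordc1 the capitals span overlapping matches, among them 3 to the longer form, GAANNTTC followed by NNGAA, and begin 4 bases before the start. In Bag3 the single match begins 42 bases after the start, and in this window of Dnaja1 124 bases before its start. Dnaja1 has 3 annotated windows, and the other 2 hold 0 matches. On either strand, GAANNTTC was found in 12 of the 31 windows of tested chaperone genes (38.7%), which belong to 11 of the 25 members with a window, and in 7.86% of all 32851 windows. The longer form, which contains the shorter, was found in 5 of the 31 (16.1%) and in 0.603% of all windows. Stip1 and Creld2 had no match in their windows, and no window was at hand for Hsp90ab1 and Hsp90aa1. A match describes letters and does not show that a factor bound there.

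Chordc1, a co-chaperone of HSP90 (gene ID 66917, chromosome 9, 18292267 to 18314000, GRCm38), was at 71.14, 64.3 and 61.04 FPKM in bLF libraries, against 46.47, 30.94 and 28.4 FPKM in control libraries. The groups did not overlap, and control replicate 1 was the nearest to bLF. Its log2 fold change was 0.92 ± 0.24 (SE, unadjusted p = 0.00266). Stip1, the adaptor that joins HSP70 to HSP90 (ID 20867, chromosome 19, 7020696 to 7040026), was at 179.86, 146.75 and 160.15 FPKM in bLF libraries, against 97.98, 70.77 and 83.99 FPKM in control libraries, a log2 fold change of 0.97 ± 0.27 (unadjusted p = 0.00395). Dnaja1, a J-domain partner of HSP70 (ID 15502, chromosome 4, 40722468 to 40734965), was at 160.01, 166.08 and 169.78 FPKM in bLF libraries, against 100.75, 81.26 and 74.44 FPKM in control libraries, a difference of 0.97 ± 0.27 on the log2 scale (unadjusted p = 0.00434). For each of these genes the lowest bLF library stood well clear of the highest control library. Bag3, the nucleotide exchange factor that hands HSP70 clients to autophagy (ID 29810, chromosome 7, 128523583 to 128546981), was at 60.27, 51.43 and 55.89 FPKM in bLF libraries, against 38.77, 29.08 and 34.5 FPKM in control libraries (0.74 ± 0.20, unadjusted p = 0.00389). Hsp90ab1, the constitutive cytosolic HSP90 (ID 15516, chromosome 17, 45567778 to 45573261), was at 2103.01, 1624.72 and 1523.78 FPKM in bLF libraries, against 1192.54, 767.58 and 1025.37 FPKM in control libraries (0.84 ± 0.26, unadjusted p = 0.00704). It was the most abundant of the 5 and again the groups did not overlap.

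**Figure D1:**
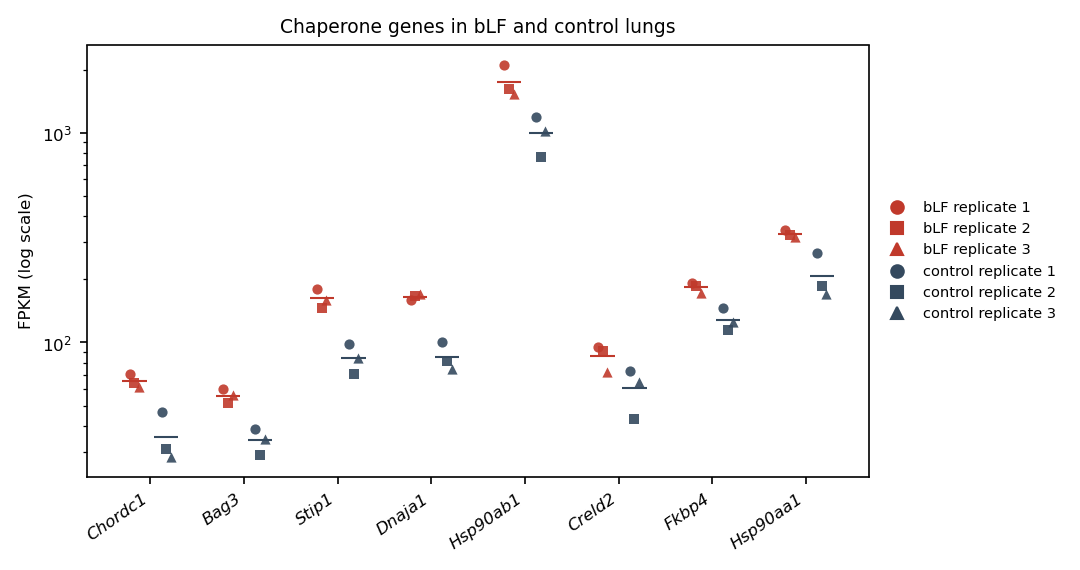
FPKM on a log axis for the 8 chaperone genes at an unadjusted edgeR p under 0.05, with 3 bLF libraries (red, left of each pair) and 3 control libraries (dark, right), marker shapes for replicates and bars for group means. For Chordc1, Bag3, Stip1, Dnaja1, Hsp90ab1, Fkbp4 and Hsp90aa1 every bLF point lies above every control point, and for Creld2 1 bLF point (72.36 FPKM) lies just under control replicate 1 (73.49 FPKM).

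The remaining chaperones, named after their values were seen, showed where the pattern held and where it did not. Fkbp4, an immunophilin of steroid receptor complexes, differed by 0.53 ± 0.20 (unadjusted p = 0.0226), the stress-inducible HSP90 gene Hsp90aa1 by 0.69 ± 0.27 (unadjusted p = 0.027) and Creld2, an endoplasmic reticulum protein, by 0.55 ± 0.19 (unadjusted p = 0.016). Hspb1, a small heat shock protein, was at 464.18, 555.68 and 638.2 FPKM in bLF libraries, against 243.24, 363.91 and 315.29 FPKM in control libraries (0.85 ± 0.39, unadjusted p = 0.0532). Hsph1 of the HSP110 family was at 33.29, 27.79 and 35.08 FPKM in bLF libraries, against 8.31, 20.17 and 11.64 FPKM in control libraries (1.24 ± 0.66). Their groups did not overlap, but the spread across libraries was too wide for a small p. The inducible HSP70 genes behaved differently between control mice: Hspa1a was at 70.36, 65.98 and 77.61 FPKM in bLF libraries, against 15.84, 61.24 and 15.95 FPKM in control libraries (1.15 ± 1.17). Hspa1b, a near-identical copy whose reads may be split with it, had the same shape, with control replicate 2 as high as the bLF libraries. The main chaperone of the endoplasmic reticulum, Hspa5, was at 120.43, 105.65 and 144.05 FPKM in bLF libraries, against 123.78, 115.04 and 137.44 FPKM in control libraries, a log2 fold change of −0.0012 ± 0.19. Its neighbour in that compartment Hsp90b1 differed by 0.11 ± 0.24, and the heat shock factor genes Hsf1 and Hsf2 by −0.09 ± 0.23 and −0.12 ± 0.28.

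Genes outside that list but with related roles gave a thinner picture. Of 24 tested genes of the unfolded protein and integrated stress response, 16 were higher and 8 lower in bLF lungs, with a median log2 fold change of 0.11. At an unadjusted p under 0.05 stood 1, on the high side, where the share over all genes is 0.714%. That gene, Syvn1, the ubiquitin ligase of endoplasmic reticulum quality control, was at 54.31, 46.54 and 44.78 FPKM in bLF libraries, against 42.22, 27.45 and 40.95 FPKM in control libraries (0.43 ± 0.14, unadjusted p = 0.0127). The proteasome genes were spread around 0, with 19 of 36 higher, a median of 0.0067 and 0 at an unadjusted p under 0.05. P4ha1, the collagen prolyl hydroxylase counted among 24 hypoxia genes, was at 32.77, 32.95 and 29.65 FPKM in bLF libraries, against 21.54, 14.93 and 20.08 FPKM in control libraries (0.77 ± 0.28, unadjusted p = 0.0173). The hypoxia list itself had 9 members higher and 15 lower, with a median of −0.06.

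Genes that glucocorticoids induce were also higher on balance in bLF lungs. Glucocorticoids act through a nuclear receptor that HSP90 and Fkbp4 hold in a hormone-binding state, and in lung they induce Tsc22d3, Fkbp5 and Klf15, among others, while the level of the hormone follows the day. Of 26 tested glucocorticoid targets, 18 were higher and 8 lower. The median log2 fold change was 0.34. At an unadjusted p under 0.05 stood 3, all higher, where 0.714% of all genes did, and in 10 all bLF libraries lay above all control libraries, where 4.44% of all genes did. The list median was 0.62 without control replicate 1 and 0.21 without control replicate 2, and between 0.31 and 0.43 without each of the other 4 libraries. List means were 0.37, 0.29 and 0.45 in bLF libraries, against 0.03, −0.09 and 0.06 in control libraries.

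Klf15, a transcription factor of amino acid and lipid metabolism (ID 66277, chromosome 6, 90461043 to 90491803), had the smallest p of the genes higher in bLF lungs. It was at 38.03, 29.68 and 39.27 FPKM in bLF libraries, against 18.81, 18.9 and 24.87 FPKM in control libraries, and the groups did not overlap (0.79 ± 0.18, unadjusted p = 0.00125). Tsc22d3, which encodes the glucocorticoid-induced leucine zipper protein GILZ, was at 120.81, 106.91 and 135.8 FPKM in bLF libraries, against 59.52, 51.64 and 101.38 FPKM in control libraries (0.77 ± 0.27, unadjusted p = 0.0162). Per1, a period gene of the clock that glucocorticoids also induce, was at 32.68, 28.64 and 34.69 FPKM in bLF libraries, against 17.99, 12.26 and 25.86 FPKM in control libraries (0.78 ± 0.31, unadjusted p = 0.0312). In each of these genes control replicate 3 was the control library nearest to bLF. Of others on the list, chosen after their values were seen, Fkbp5, a much used marker of glucocorticoid action, was at 3.19, 3.66 and 5.51 FPKM in bLF libraries, against 1.57, 1.64 and 2.22 FPKM in control libraries (1.21 ± 0.97). Its groups did not overlap, but it varied widely in the shared fit. Dusp1 (−0.56 ± 0.32) and Sgk1 (−0.34 ± 0.25) lay on the low side.

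Clock genes were examined because the labels do not give the hour of collection. Of 21 tested clock genes, 15 were higher and 6 lower in bLF lungs, with a median log2 fold change of 0.14 that became −0.04 without control replicate 2 and 0.03 without bLF replicate 1. Ciart, a repressor of the clock's activator complex (ID 229599, chromosome 3, 95878500 to 95882257), was at 66.01, 59.17 and 47.88 FPKM in bLF libraries, against 39.09, 30.5 and 45.08 FPKM in control libraries (0.61 ± 0.17, unadjusted p = 0.00488). Ciart and Per1 were the 2 clock genes at an unadjusted p under 0.05, both higher, where the share over all genes is 0.714%. In 3 of the 21 clock genes all 3 bLF libraries lay above all 3 control libraries, where 4.44% of all genes did. Nr1d1, Dbp and Arntl, which swing widely over the day in most tissues, did not separate the groups. They were chosen here after their values were seen. Nr1d1 was at 216.9, 140.35 and 161.79 FPKM in bLF libraries, against 202.13, 87.58 and 195.86 FPKM in control libraries (0.14 ± 0.44). Dbp differed by 0.05 ± 0.44 and Arntl, which peaks opposite to them, by −0.51 ± 0.58. The part of collection time in any of these values was not tested.

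The clock's activators bind the E-box CACGTG, and the promoters of Ciart, Klf15 and Per1 are shown because each carries it, in capitals. The windows are built as above, at chr3:95882179-95882478 (minus strand) for Ciart, chr6:90462326-90462625 (plus strand) for Klf15 and chr11:69098699-69098998 (plus strand) for Per1.
Ciart: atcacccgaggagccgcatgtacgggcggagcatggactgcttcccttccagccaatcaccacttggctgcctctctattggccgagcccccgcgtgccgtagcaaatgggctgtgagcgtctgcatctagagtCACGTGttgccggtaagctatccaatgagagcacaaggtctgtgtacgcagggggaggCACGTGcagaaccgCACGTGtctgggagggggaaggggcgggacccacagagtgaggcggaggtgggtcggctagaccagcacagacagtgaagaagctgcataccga
Klf15: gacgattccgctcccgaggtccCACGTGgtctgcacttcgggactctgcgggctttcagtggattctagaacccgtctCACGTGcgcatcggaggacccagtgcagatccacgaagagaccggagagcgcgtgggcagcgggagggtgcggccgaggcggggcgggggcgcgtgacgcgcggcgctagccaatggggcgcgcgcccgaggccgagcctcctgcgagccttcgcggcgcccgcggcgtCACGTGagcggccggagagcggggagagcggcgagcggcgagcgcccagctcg
Per1: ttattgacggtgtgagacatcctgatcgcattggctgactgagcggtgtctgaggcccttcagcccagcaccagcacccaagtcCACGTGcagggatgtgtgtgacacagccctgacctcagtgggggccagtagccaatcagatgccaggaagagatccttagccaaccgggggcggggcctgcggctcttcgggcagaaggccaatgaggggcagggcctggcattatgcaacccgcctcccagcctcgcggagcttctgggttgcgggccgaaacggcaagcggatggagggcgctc
Ciart and Klf15 hold 3 matches each and Per1 holds 1 in this window. A further annotated window of Per1 holds 0 matches. CACGTG reads the same on both strands. It was found in 6 of the 22 windows of tested clock genes (27.3%), in 4 of the 31 windows of chaperone genes (12.9%) and in 7.15% of all 32851 windows.

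Immediate-early genes, which cells switch on within minutes of a stimulus, held the gene with the smallest p of all. Nr4a1, an orphan nuclear receptor induced by growth factors, stress and antigen receptor signals (ID 15370, chromosome 15, 101253902 to 101274795), was at 11.32, 11.23 and 13.65 FPKM in bLF libraries, against 30.6, 20.94 and 24.52 FPKM in control libraries. Every bLF library was below every control library, and the means were 12.1 ± 1.37 FPKM in bLF and 25.4 ± 4.88 FPKM in control lungs (SD, n = 3 each). By edgeR the log2 fold change was −1.04 ± 0.19 (SE, unadjusted p = 0.000219, adjusted p = 1). By DESeq2 it was −1.04 ± 0.20, with an adjusted p of 0.00492, the only call in the comparison. DESeq2 did not call Nr4a1 without bLF replicate 1, bLF replicate 2, control replicate 1 or control replicate 3 (adjusted p = 0.308, 0.217, 0.13 and 0.0618), and called it without bLF replicate 3 or control replicate 2 (adjusted p = 0.00248 and 0.0315).

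The rest of that family was mixed. Of 28 tested immediate-early genes, 11 were higher and 17 lower, with a median of −0.20, and 3 were at an unadjusted p under 0.05, all lower, where the share over all genes is 0.663%. The median was −0.03 without control replicate 1. Ccn1, a secreted matrix protein that serum and stretch induce (ID 16007, chromosome 3, 145646971 to 145649985), was at 20.89, 32.96 and 28.07 FPKM in bLF libraries, against 84.02, 46.96 and 50.78 FPKM in control libraries (−1.11 ± 0.33, unadjusted p = 0.00613). Fosb, a Fos-family subunit of AP-1, was at 0.3, 0.66 and 0.38 FPKM in bLF libraries, against 2.42, 1.23 and 0.5 FPKM in control libraries (−1.61 ± 0.57, unadjusted p = 0.0173), and its groups overlapped. Control replicate 1 was the highest library for each of these genes. Egr1, chosen after its values were seen, shows this most: it was at 5.64, 5.34 and 7.87 FPKM in bLF libraries, against 32.09, 7.27 and 7.79 FPKM in control libraries (−1.25 ± 0.67). The Nr4a1 relatives Nr4a2 (−0.30 ± 0.48) and Nr4a3 (0.32 ± 0.52), both at most 1.07 FPKM in each of the 6 libraries, did not differ beyond their errors.

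**Figure D2:**
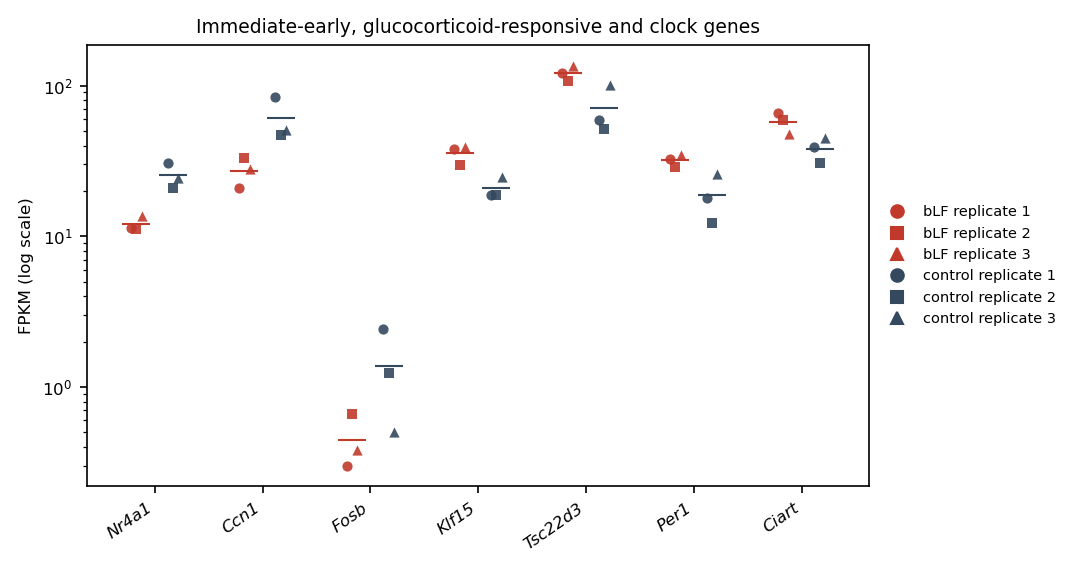
FPKM on a log axis for immediate-early genes (Nr4a1, Ccn1, Fosb), glucocorticoid-responsive genes (Klf15, Tsc22d3, Per1) and the clock repressor Ciart, with 3 bLF libraries (red, left) and 3 control libraries (dark, right) and bars for group means. Nr4a1 and Ccn1 are lower in all 3 bLF libraries and Fosb overlaps. Klf15, Tsc22d3, Per1 and Ciart are higher in all 3 bLF libraries.

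Contractile genes of smooth muscle leaned lower in bLF lungs. Of 25 tested smooth muscle and pericyte genes, 6 were higher and 19 lower. The median log2 fold change was −0.14, and 2 were at an unadjusted p under 0.05, both lower, where the share over all genes is 0.663%. The median was 0.0037 without control replicate 1. Myh11, the smooth muscle myosin heavy chain, was at 21.26, 16.92 and 20.44 FPKM in bLF libraries, against 37.96, 30.8 and 21.84 FPKM in control libraries (−0.62 ± 0.21, unadjusted p = 0.0132). Lmod1, the actin nucleator leiomodin of smooth muscle, was at 2.97, 1.81 and 1.99 FPKM in bLF libraries, against 5.83, 3.35 and 2.45 FPKM in control libraries (−0.75 ± 0.29, unadjusted p = 0.0256). On scaled FPKM both genes overlapped, with control replicate 3 near the bLF libraries. List means for smooth muscle were 0.09, −0.36 and −0.22 in bLF libraries, against 0.34, −0.01 and −0.33 in control libraries, so that control replicate 1, highest for Ccn1 and Egr1, was also highest here. The share of tissue composition in the values of Ccn1 and Myh11 was not tested. Tnc, the matrix protein tenascin C, was the 1 gene of 35 tested matrix genes at an unadjusted p under 0.05, at 0.76, 1.46 and 0.91 FPKM in bLF libraries, against 2.08, 1.43 and 1.75 FPKM in control libraries (−0.72 ± 0.29, unadjusted p = 0.0306). The share of all genes lower at that threshold is 0.663%. Ccn3, a matrix protein of the same family as Ccn1, was at 1.22, 0.37 and 0.63 FPKM in bLF libraries, against 3.49, 2.6 and 0.9 FPKM in control libraries (−1.64 ± 0.57, unadjusted p = 0.0151), and its groups overlapped.

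The other genes with the smallest p were of mixed function. Among those higher in bLF lungs were Adamtsl4, a secreted protein of fibrillin fibres (0.51 ± 0.14), the MAP kinase phosphatase Dusp8 (0.51 ± 0.14), the class Ib MHC gene H2-T10 (0.51 ± 0.15), Naa16, a subunit of an N-terminal acetyltransferase (0.85 ± 0.25), and the Rab GTPase-activating protein Tbc1d10a (0.50 ± 0.15). H2-T10 belongs to a cluster of similar genes, and reads may be shared among them. Among those lower were the lipid phosphatase Plpp6 (−0.56 ± 0.14), the ADP-ribosyltransferase Parp16 (−0.83 ± 0.25), the translation factor Denr (−0.51 ± 0.16), the zinc finger genes Casz1 (−0.44 ± 0.14), Zfp608 (−0.46 ± 0.15) and Zfand5 (−0.41 ± 0.13), the gene model Gm4631 (−0.87 ± 0.30) and Ttc14 (−0.57 ± 0.19). Parp16 was at 1.27, 1.31 and 1.34 FPKM in bLF libraries, against 2.34, 2.41 and 2.27 FPKM in control libraries, a narrow spread within each group at a low level. Plpp6 was at 5.68, 6.64 and 6.05 FPKM in bLF libraries, against 9.22, 8.57 and 9.73 FPKM in control libraries. Of the 12 genes with the smallest p in each direction, all 12 that were higher and 10 that were lower had groups that did not overlap on scaled FPKM, as their choice by p favours.

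Cell cycle genes lay on the high side at low levels. Of 30 tested, 29 were higher and 1 lower in bLF lungs, where 45.4% of all genes were higher. The median log2 fold change was 0.35, and 1 was at an unadjusted p under 0.05, on the high side, where the share over all genes is 0.714%. In 5 of the 30 all 3 bLF libraries lay above all 3 control libraries, where 4.44% of all genes did. Mcm5, a subunit of the replicative helicase, was at 3.63, 3.91 and 3.44 FPKM in bLF libraries, against 2.77, 2.05 and 3.16 FPKM in control libraries (0.49 ± 0.20, unadjusted p = 0.035). Ube2c, the ubiquitin-conjugating enzyme of mitotic exit, was at 8.55, 13.38 and 7.77 FPKM in bLF libraries, against 9.04, 4.38 and 5.28 FPKM in control libraries (0.71 ± 0.34). List means were 0.26, 0.66 and 0.17 in bLF libraries, against 0.18, −0.12 and −0.06 in control libraries. bLF replicate 2 was the highest, bLF replicate 3 lay just under control replicate 1, and the list median was 0.22 without bLF replicate 2.

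Most of the genes of inflammation and endotoxin sensing printed here differed by less than their errors. Tlr4, the LPS receptor, was at 1.1, 0.95 and 1.25 FPKM in bLF libraries, against 1.03, 1.01 and 1.09 FPKM in control libraries (0.10 ± 0.24). Its co-receptor Cd14 was at 10.72, 11.02 and 9.99 FPKM in bLF libraries, against 6.07, 14.55 and 11.76 FPKM in control libraries (−0.04 ± 0.34). Tnf stood at or below 1.04 FPKM in each of the 6 libraries (0.24 ± 0.73), and Il6 at 0.19, 0 and 0.27 FPKM in bLF libraries, against 0.07, 0.14 and 0.19 FPKM in control libraries, which was too low to be tested. The cytokine Il1b differed by 0.12 ± 0.42 and the neutrophil chemoattractant Cxcl1 by 0.02 ± 0.88. Saa3, an acute-phase protein of inflamed lung, was at 48.76, 18 and 9.4 FPKM in bLF libraries, against 30.94, 103.43 and 21.39 FPKM in control libraries (−1.09 ± 1.59). Of 23 tested inflammatory cytokines and mediators, 9 were higher and 14 lower, with a median of −0.13 and 0 at an unadjusted p under 0.05. Csf1 (−0.33 ± 0.18) and Areg (−1.18 ± 0.74) had the smallest p of these and exceeded their errors. In 2 of the 23 all bLF libraries lay above all control libraries, and in 2 below, where 4.44% and 4.5% of all genes did. The 34 genes of LPS recognition and NF-kB had a median of −0.05, with 1 at an unadjusted p under 0.05, the inhibitor Nfkbib (0.34 ± 0.15, unadjusted p = 0.0437). The share of all genes higher at that threshold is 0.714%.

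Leukocyte genes gave mixed values, and few were at an unadjusted p under 0.05. The B cell receptor chain Cd79a was at 146.3, 137.39 and 55.76 FPKM in bLF libraries, against 111.89, 76.69 and 149.25 FPKM in control libraries (0.04 ± 0.54), and the T cell chain Cd3e differed by 0.15 ± 0.91. Jchain, the joining chain of secreted IgA and IgM, was at 31.19, 19.89 and 21.11 FPKM in bLF libraries, against 12.51, 12.32 and 16.04 FPKM in control libraries. Its groups did not overlap, yet its spread in the shared fit was wide (0.84 ± 0.58). Of 20 tested MHC class I presentation genes, 15 were higher, where 45.4% of all genes were, with a median of 0.15, and in 4 all bLF libraries lay above all control libraries, where 4.44% of all genes did. The class I genes H2-D1 and H2-Q4 differed by 0.52 ± 0.27 and 0.50 ± 0.26 (unadjusted p = 0.0792). Of 18 tested NK and cytotoxic lymphocyte genes, 11 were higher with a median of 0.14, and 0 were at an unadjusted p under 0.05. In 4 of these 18 all bLF libraries lay above all control libraries, where 4.44% of all genes did. Of 8 tested mast cell and basophil genes, 6 were higher with a median of 0.51, and 0 were at an unadjusted p under 0.05. In 2 of the 8 all bLF libraries lay above all control libraries, beside the same 4.44% of all genes. Mcpt4, a mast cell protease, was at 22.78, 13.78 and 12.96 FPKM in bLF libraries, against 11.42, 5.28 and 7.6 FPKM in control libraries (1.06 ± 0.93). The mast cell median was −0.05 without bLF replicate 1. Of 28 monocyte and interstitial macrophage genes, 17 were higher with a median of 0.13, and of 23 alveolar macrophage genes 6 were higher with a median of −0.11. Of 41 interferon-stimulated genes, 14 were higher with a median of −0.08, and Oas1a, an antiviral oligoadenylate synthetase, was the 1 at an unadjusted p under 0.05 (11.2, 11.7 and 11.74 FPKM in bLF libraries, against 4.88, 6.17 and 10.52 FPKM in control libraries, unadjusted p = 0.0386). Plaur, the receptor of the plasminogen activator urokinase on leukocytes and epithelium, was at 85.45, 94.71 and 108.05 FPKM in bLF libraries, against 66.59, 47.16 and 76.36 FPKM in control libraries (0.63 ± 0.21, unadjusted p = 0.0127), the 1 of 17 coagulation and fibrinolysis genes at that threshold. Beside Oas1a and Plaur, the share of all genes higher at that threshold was 0.714%. In 3 of these 17 all bLF libraries lay below all control libraries, and in 1 above, where 4.5% and 4.44% of all genes did.

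Iron genes were of interest because the protein given binds iron. The transferrin receptor Tfrc, which cells raise when iron is short, was at 8.28, 8.9 and 8.22 FPKM in bLF libraries, against 9.97, 8.73 and 8.76 FPKM in control libraries (−0.09 ± 0.28). The iron exporter Slc40a1 was at 1.79, 2.12 and 1.63 FPKM in bLF libraries, against 2, 2.01 and 2.27 FPKM in control libraries (−0.17 ± 0.22). These levels overlapped and their errors were larger than the differences. The ferritin heavy chain Fth1 was at 590.02, 597.28 and 930.61 FPKM in bLF libraries, against 573.76, 1181.36 and 1144.08 FPKM in control libraries (−0.45 ± 0.33), and the haem-degrading enzyme Hmox1 differed by 0.15 ± 0.65. Hamp, the iron hormone hepcidin, ranged widely within each group, at 247.32, 5.5 and 6.5 FPKM in bLF libraries, against 47.99, 49.41 and 1.04 FPKM in control libraries. Of 38 tested iron genes, 16 were higher and 22 lower with a median of −0.07. The 1 at an unadjusted p under 0.05 was Ltf, on the high side and described next, where the share over all genes is 0.714%. Of 17 tested lactoferrin-binding surface proteins, 8 were higher and 9 lower with a median of −0.01, among them Lrp1 at 12.03, 11.99 and 11.87 FPKM in bLF libraries, against 11.22, 10.79 and 15.97 FPKM in control libraries, and Asgr1 of the asialoglycoprotein receptor (−0.18 ± 0.32).

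Several large fold changes came from bLF replicate 1 alone. The mouse's own lactoferrin gene Ltf (ID 17002, chromosome 9, 111019292 to 111042766) was at 112.94, 1.44 and 3.33 FPKM in bLF libraries, against 2.02, 3.06 and 1.09 FPKM in control libraries. Its fitted log2 fold change was 4.21 ± 1.65 (unadjusted p = 0.0266) and 0.23 without bLF replicate 1. This gene is expressed by airway glands as well as neutrophils, and the bovine protein that was given leaves no RNA of its own in these counts. Scgb3a1, a secretoglobin of large airways, was at 8564.75, 79.35 and 62.07 FPKM in bLF libraries, against 60.39, 37.61 and 70.59 FPKM in control libraries. The airway defence protein Bpifa1 was at 255.71, 0.07 and 0.07 FPKM in bLF libraries, against 0, 0.67 and 0 FPKM in control libraries. The antimicrobial lectin Reg3g followed them, at 136.91, 0.11 and 0.43 FPKM in bLF libraries, against 0.22, 4.16 and 0.21 FPKM in control libraries. Without bLF replicate 1 the log2 fold changes were 0.39 for Scgb3a1, −1.67 for Bpifa1 and −2.52 for Reg3g. The 18 tested neutrophil markers, of which Ltf is 1, had list means of −0.04, −0.27 and 0.48 in bLF libraries, against −0.49, 0.52 and −0.03 in control libraries. The part of neutrophils in the Ltf value was not tested.

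The same library was also high in genes of tissues next to the airways. Krt5, the keratin of basal cells, was at 7.9, 0 and 0.03 FPKM in bLF libraries and was listed at 0 in all 3 control libraries. Nppa, the atrial natriuretic peptide, was at 829.86, 0 and 0.09 FPKM in bLF libraries, against 9.79, 0.19 and 0.09 FPKM in control libraries, and the atrial myosin Myh6 was at 114.35, 3.75 and 7.1 FPKM in bLF libraries, against 25.12, 9.21 and 2.7 FPKM in control libraries. Of 26 tested cardiac muscle genes, 25 had a fitted log2 fold change above 0, with a median of 1.52, and 0 were at an unadjusted p under 0.05. All 26 were highest among bLF libraries in replicate 1, and 23 of the 26 were highest among control libraries in replicate 1. Without bLF replicate 1 their median was −1.09. The brown fat gene Ucp1, which uncouples respiration, was at 57.37, 0 and 0 FPKM in bLF libraries, against 88.08, 0 and 0.04 FPKM in control libraries. The 24 tested fat genes had list means of 2.70, −2.37 and −2.33 in bLF libraries, against 3.43, −2.19 and −1.23 in control libraries, so that replicate 1 of either group stood apart. Their median of −0.65 became −4.24 without bLF replicate 1 and 2.79 without control replicate 1. The skeletal actin Acta1 was likewise highest in replicate 1 of each group (9.8 and 4.89 FPKM).

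**Figure D3:**
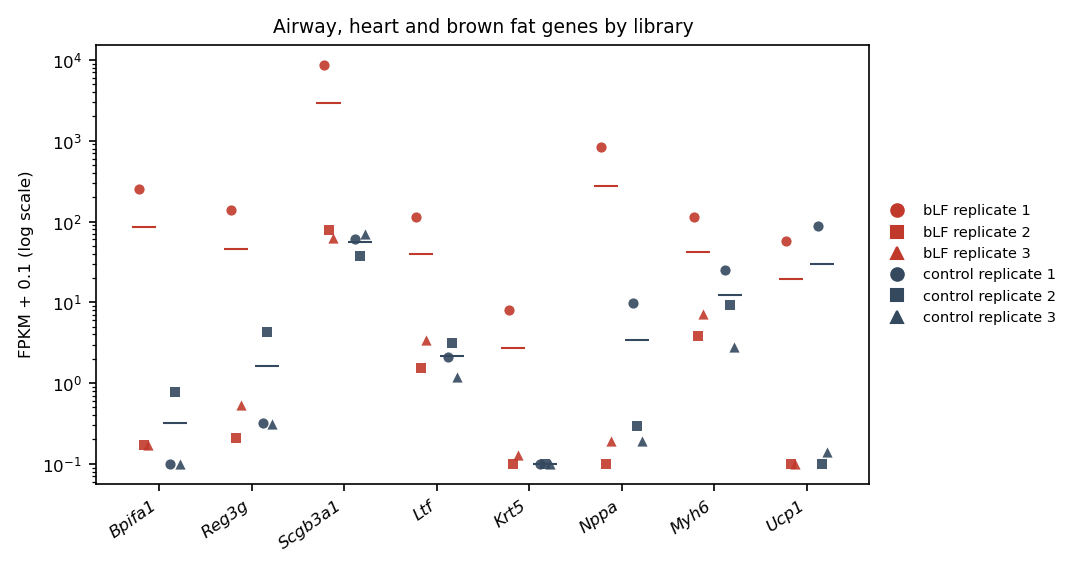
FPKM + 0.1 on a log axis for genes of large airways (Bpifa1, Reg3g, Scgb3a1, Ltf, Krt5), heart (Nppa, Myh6) and brown fat (Ucp1), with 3 bLF libraries (red, left) and 3 control libraries (dark, right), marker shapes for replicates and bars for group means. bLF replicate 1 (circle) is far above the other bLF libraries for every gene shown, and control replicate 1 is above the other control libraries for Nppa, Myh6 and Ucp1.

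The medians of the chaperone and glucocorticoid lists were as large without the replicates numbered 1. Without both bLF replicate 1 and control replicate 1, 29 of 34 chaperone genes were higher, 7 were at an unadjusted p under 0.05 and the list median was 0.36. The glucocorticoid list median was then 0.38, and that of the immediate-early genes was −0.0056. edgeR called 0 genes there too. By edgeR Nr4a1 then differed by −0.88, and DESeq2 no longer called it (adjusted p = 1).

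Epithelial and endothelial identity genes differed from list to list. Of 22 tested alveolar type 2 and surfactant genes, 4 were higher and 18 lower with a median of −0.12 and 0 at an unadjusted p under 0.05, and Sftpc differed by 0.07 ± 0.46. That median was 0.03 without bLF replicate 1. Of 11 tested genes of basal cells and squamous epithelium, 10 were higher with a median of 0.47 and 0 at an unadjusted p under 0.05, and the median was 0.04 without bLF replicate 1. Of 33 endothelial genes 17 were higher, with a median of 0.00011, and of 19 alveolar type 1 genes 9 were higher with a median of −0.01. Scgb1a1 was at 252232.45, 283821.39 and 331490.3 FPKM in bLF libraries, against 114066.94, 1056141.44 and 268221.13 FPKM in control libraries (−0.79 ± 0.75). The bLF values lay inside the control range, and ciliated cell genes varied with it among the controls, with list means of 0.17, −0.11 and 0.20 in bLF libraries, against −0.80, 1.06 and −0.26 in control libraries.

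**Figure D4:**
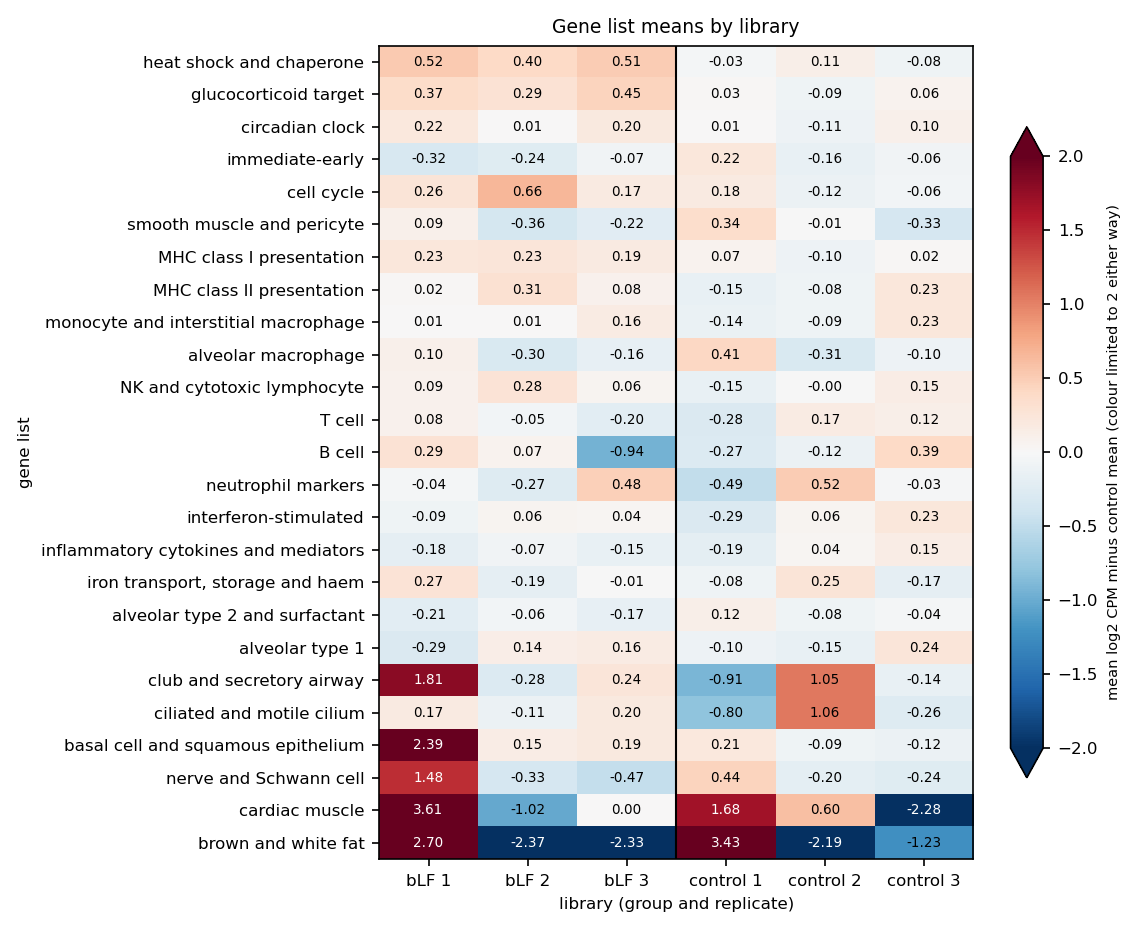
Heat map of 25 gene lists (rows) by the 6 libraries (columns, bLF left and control right), each cell giving the mean log2 CPM of the list's tested genes minus the mean of the 3 control libraries, with the colour limited to 2 either way. The chaperone and glucocorticoid rows lie between 0.29 and 0.52 in all 3 bLF libraries and at most 0.11 in control libraries. The cardiac, fat, basal cell and nerve rows are high in bLF replicate 1, and the cardiac and fat rows are also high in control replicate 1 (1.68 and 3.43).

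The same protein was also given on top of LPS, and this pair of groups shares no library with bLF and control. There edgeR called 0 genes for LPS+bLF versus LPS as well (950 at an unadjusted p under 0.05). LPS replicate 1 stands apart in this series, and values without it follow the comparison. Of all 13735 genes, 6583 were higher and 7151 lower in LPS+bLF than in LPS lungs. Of the 12 genes with the smallest p on the high side without LPS, 9 were higher and 3 lower in LPS+bLF than in LPS lungs, and of the 12 on the low side 3 were higher and 9 lower. The chaperone list had 15 of 34 members higher with LPS and a median of −0.0086, beside 28 of 34 and 0.34 without LPS. The glucocorticoid list had 4 of 26 members higher and a median of −0.74, beside 18 of 26 and 0.34. For the smooth muscle list 19 of 25 were higher with a median of 0.29, beside 6 of 25 and −0.14. The cell cycle list had 6 of 30 members higher and a median of −0.51, beside 29 of 30 and 0.35. Its counts were not computed without LPS replicate 1.

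The difference between the 2 bLF effects was tested gene by gene as an interaction, the effect with LPS minus that without. By edgeR 0 of 13735 genes (0%) passed adjustment, 384 (2.8%) had an unadjusted p under 0.05, and limma called 0. DESeq2 called 1, the gene model Gm10499 of the class I MHC region (adjusted p = 0.0175), named after its value was seen. The genes below were chosen by their p in bLF versus control, which is 1 of the 2 terms of the interaction, so the choice itself favours a difference between the terms and the p-values are descriptions. For Nr4a1 the log2 fold change was −1.04 without LPS and 0.05 ± 0.19 with it, and the interaction had an unadjusted p = 0.00195. Tsc22d3 differed by 0.77 without LPS and by −0.72 ± 0.27 with it, at 47.97, 59.78 and 63.29 FPKM in LPS+bLF libraries, against 109.9, 88.85 and 75.03 FPKM in LPS libraries (interaction, unadjusted p = 0.00255). The order of the groups was thus opposite in the 2 settings, with no overlap in either. Bag3 differed by 0.74 without LPS and −0.34 ± 0.20 with it (interaction, unadjusted p = 0.00307), and Myh11 by −0.62 and 0.37 ± 0.21 (unadjusted p = 0.0066). Klf15 (0.79 and 0.12 ± 0.18, unadjusted p = 0.0256) and Dnaja1 (0.97 and 0.09 ± 0.27, unadjusted p = 0.0405) had smaller values with LPS. Chordc1 was at 0.92 and 0.19 ± 0.24 (unadjusted p = 0.0521), Stip1 at 0.97 and 0.27 ± 0.27 (unadjusted p = 0.089) and Hsp90ab1 at 0.84 and 0.17 ± 0.25 (unadjusted p = 0.0853). Dusp8 (0.51 and 0.51 ± 0.14) and Casz1 (−0.44 and −0.46 ± 0.14) had nearly equal values in both settings.

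LPS replicate 1 had 3067 genes at 0, where the 6 bLF and control libraries had 1507 to 1963. Without it the common coefficient of variation was 0.292, against 0.352 with it, and bLF versus control had 557 genes at an unadjusted p under 0.05, of which 188 were among the 189, and 0 called (smallest adjusted p = 0.959). In that fit 14 of 34 chaperone genes were at an unadjusted p under 0.05. For LPS+bLF versus LPS edgeR called 2 genes without that library (0.0146%), the granzyme genes Gzmb (−3.31 ± 0.37) and Gzma (−1.65 ± 0.20), both lower in LPS+bLF lungs at an adjusted p of 0.0494 and named after their values were seen. For the interaction it called 0.

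Several values with LPS depended on that library. The glucocorticoid list median for LPS+bLF versus LPS was 0.07 without it, with 15 of 26 higher, so that its direction turned. The chaperone list median was −0.10, with 14 of 34 higher, and the smooth muscle list median was 0.39, with 20 of 25 higher. Of the 12 genes chosen on the high side 8 were then higher in LPS+bLF than in LPS lungs, and of the 12 on the low side 3 were. Among all 13735 genes 6962 were then higher and 6772 lower. Dnaja1 turned to −0.08 ± 0.27 with LPS (interaction, unadjusted p = 0.0149) and Nr4a1 to −0.07 ± 0.19 (unadjusted p = 0.00304). Stip1 was at 0.06 ± 0.24 (unadjusted p = 0.0156) and Tsc22d3 at −0.47 ± 0.26 (unadjusted p = 0.00542). Bag3 was at −0.36 ± 0.22 (unadjusted p = 0.00382), Myh11 at 0.32 ± 0.23 (unadjusted p = 0.0118) and Klf15 at 0.13 ± 0.20 (unadjusted p = 0.0341).

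**Figure D5:**
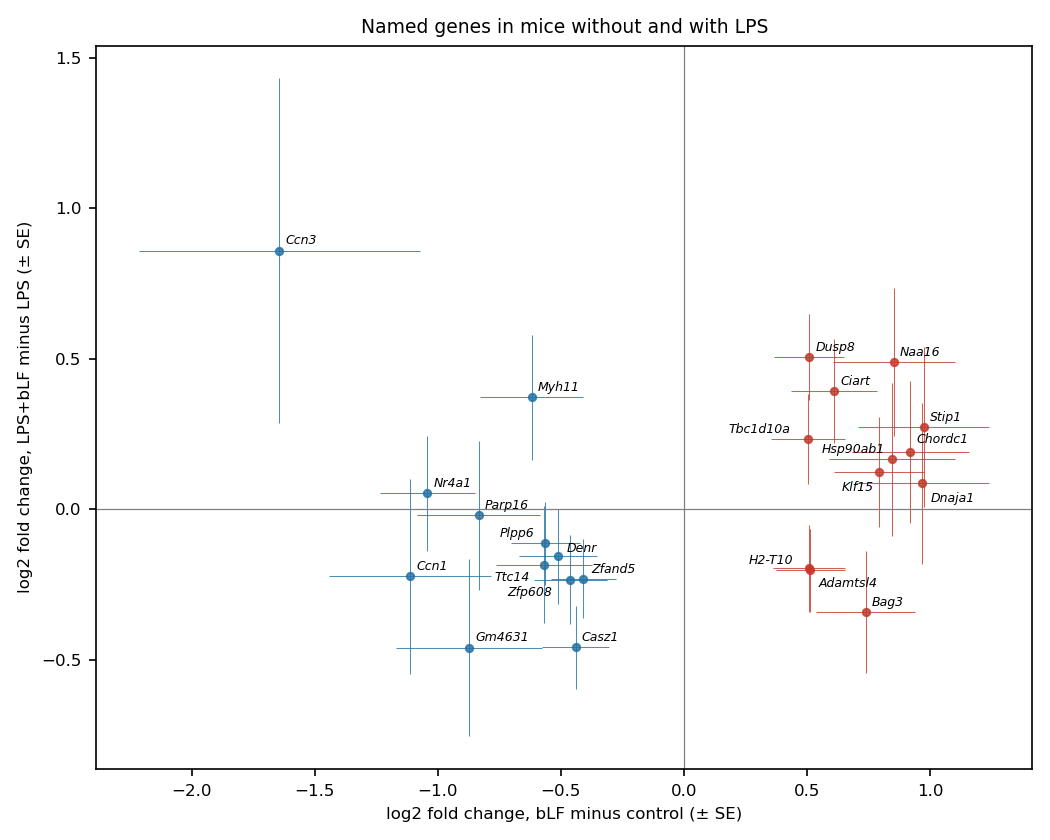
Log2 fold change of bLF minus control (x axis) and of LPS+bLF minus LPS (y axis), each ± SE derived from the edgeR F statistic, for the 12 genes with the smallest p on each side of bLF versus control (red higher, blue lower). The x axis values chose the genes, and the y axis values include LPS replicate 1. On the y axis 9 of the 12 red genes are above 0, and Nr4a1, Myh11 and Ccn3 are the blue genes above 0.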

How the data were processed

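Polyadenylated lung RNA was sequenced from 12 mice, 1 library each. Per the submitters' processing notes HISAT2 2.1.0, RSEM 1.2.8 and the build mm10 were used, with no role stated; strand and annotation are not given in the sources used here. Counts and FPKM per gene stand side by side, per the file headers. The deposited counts are expected counts in kind, since 4.12 to 5.91% of genes per library had one that was not whole, and they were rounded here. The FPKM values were made by the authors and were used as deposited. In R 4.3.3, edgeR 4.0.16 (TMM, quasi-likelihood, 4 group means over 12 libraries, 8 residual degrees of freedom, no replicate block) was the test, two-sided, with Benjamini-Hochberg adjustment and calls at 0.05; limma 3.58.1 and DESeq2 1.42.0 (168 adjusted p-values not given) were alternatives. An SE printed with an edgeR value is the size of the log2 fold change divided by the square root of its quasi-likelihood F statistic. The code was tested on simulated data.

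Named genes are, for either direction, the 12 of smallest p with 1 FPKM or more on average, the 2 to 4 members with the smallest p of each list described, and a set of iron, inflammatory and marker genes; any other is marked as picked once its values were known, and not every gene the rule names is printed. The members and the 55 gene lists were chosen with earlier results of these data known. Of the gene IDs, 17869 of 17920 matched the RefSeq table of GRCm38.p6, and 10930 tested genes had a promoter window. Whether replicate numbers pair mice of bLF and control was not settled by the correlations of deviations between libraries. These were 0.566, 0.0224 and 0.37 for same-numbered libraries, and the main fit held no replicate block.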

Additional observations from a re-analysis of the deposited data

How the results depend on the processing

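edgeR called 0 genes in bLF versus control under each alternative run, and limma 0; DESeq2 called 1 (Nr4a1). In fits added after seeing the data, DESeq2 called 2 genes without bLF replicate 3 (Nr4a1 and Pira1), 2 without control replicate 2 (Nr4a1 and Pcdhga8, which like Pira1 was named after its values were seen) and 0 without each of the other 4 libraries or without both replicates numbered 1. For LPS+bLF versus LPS edgeR called 2 genes without LPS replicate 1, also added after seeing the data, and 0 with it. For the interaction DESeq2 called 1 gene and edgeR and limma 0. With the replicate block 0 genes were called and 136 were at an unadjusted p under 0.05 (76 higher, 60 lower). Same-numbered libraries correlated at 0.566, 0.0224 and 0.37, and bLF replicate 2 correlated best with control replicate 3 (0.431). Genes at an unadjusted p under 0.05 numbered 189, with 397 when the fit held only the 6 bLF and control libraries (155 of them shared with the 189), 112 at a mean of at least 5 FPKM, 557 without LPS replicate 1 and 103 to 524 without each of the 6 libraries, the highest without control replicate 1 (128 shared). The chaperone genes at that threshold numbered 5 to 14 of 34 over these fits. The median of all genes was between −0.04 and 0.0050 over these fits, and with DESeq2-type or upper-quartile factors 0 genes were called.

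Of 69 genes followed through the alternatives, 50 kept their direction throughout, and 46 of 1236 gene and setting pairs reversed. Many of the 69 were chosen by their p in this same comparison, which favours a kept direction. The cause of the reversals was not tested. Leaving out 1 library, or both replicates numbered 1, gave log2 fold changes of −3.79 to 3.78 for Acta1, −0.44 to 0.17 for Asgr1, −2.25 to 13.30 for Bpifa1, −0.35 to 0.33 for Cd14, −0.22 to 0.36 for Cd3e, −0.20 to 0.35 for Cd79a, −0.37 to 0.36 for Cxcl1, −2.44 to 1.92 for Hamp, −0.25 to 0.55 for Il1b, −0.16 to 0.11 for Lrp1, −1.12 to 2.70 for Myh6, −5.76 to 10.79 for Nppa, −3.04 to 7.68 for Reg3g, −2.25 to 0.042 for Saa3, −1.26 to 0.69 for Scgb1a1, −0.14 to 0.28 for Sftpc, −0.024 to 0.18 for Tlr4, −0.020 to 0.53 for Tnf and −12.37 to 9.50 for Ucp1. limma gave −0.12 for Acta1 (pseudocount 0.1), and at pseudocounts of 1 and 0.1 it gave 0.047 and 0.060 for Cd14, −0.063 and −0.064 for Cd79a, and −0.013 and −0.028 for Cxcl1. Cd79a was at −0.0069 with a mean of at least 5 FPKM. With the replicate block Cd79a was at −1.2e-05 and Cxcl1 at −0.14. None of these genes was called in any fit.

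Depth limits genes near the filter. With 3 mice per group and a median SE of 0.28 in the fit of all 4 groups, differences as small as the median of 0.16 could not be told from the spread. The median SE was 0.208 with only the bLF and control libraries and 0.207 without LPS replicate 1, both still above 0.16. A list's counts are no test.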

Other observations

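Cholesterol synthesis genes leaned low in bLF lungs. Of 24 tested genes of that pathway, 18 were lower and 6 higher. Their median log2 fold change was −0.13, against −0.03 over all genes, and in 7 all 3 bLF libraries lay below all 3 control libraries, where 4.5% of all genes did. None was at an unadjusted p under 0.05 by edgeR. Fdps, farnesyl diphosphate synthase, was at 37.86, 37.28 and 39.93 FPKM in bLF libraries, against 45.22, 51.52 and 61.46 FPKM in control libraries (−0.45 ± 0.21, unadjusted p = 0.0551). Lss, lanosterol synthase, was at 1.72, 1.68 and 1.79 FPKM in bLF libraries, against 2.27, 2.41 and 3.61 FPKM in control libraries (−0.65 ± 0.34, unadjusted p = 0.0807). The list median was −0.11 to −0.18 without each of the 6 libraries. In LPS+bLF lungs 21 of 24 were higher than in LPS lungs, with a median of 0.28 (0.11 and 19 of 24 without LPS replicate 1). Among all 13735 genes 6583 were higher with that library and 6962 without it. By edgeR the interaction had an unadjusted p of 0.031 for Fdps and 0.174 for Lss, and no gene passed adjustment. Both genes were chosen by their p in bLF versus control, and the difference for the list as a whole was not tested.

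Among subunits of oxidative phosphorylation encoded in the nucleus, 6 of 49 were higher in bLF lungs and 43 lower, with a median of −0.15 that became 0.35 without control replicate 1 and −0.39 without bLF replicate 1. Their list means were 0.32, −0.29 and −0.32 in bLF libraries, against 0.64, −0.23 and −0.41 in control libraries, and replicate 1 of each group was also the highest in fat genes.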
